A study of Mus musculus with 8 samples.

Results

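The growth hormone, JAK-STAT and SOCS genes were followed through the chromatin accessibility data of the adult mouse liver. The group holds 10 named genes, chosen by role but with earlier results of these data known, among 21755 protein-coding genes on chromosomes 1 to 19 and X. They are the receptor gene Ghr, the kinase gene Jak2, the transcription factor genes Stat5a and Stat5b, the growth factor axis genes Igf1 and Igfals, and the feedback inhibitor genes Cish, Socs1, Socs2 and Socs3. A region was assigned to a gene if it overlapped the gene body or lay within 10 kb of it.

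ATAC-seq, in which a transposase cuts and tags open chromatin, was performed on nuclei of frozen adult livers of C57BL/6 mice (C57BL/6J in the methods of the study), in 8 libraries of 50000 nuclei, 4 from control and 4 from Alb-D2KO mice. In Alb-D2KO mice a floxed Dio2 gene, which encodes the deiodinase that activates thyroxine, is inactivated by Cre recombinase driven by the albumin promoter. The study describes this inactivation as specific to hepatocytes, which the lists cannot check. Controls are described in the study as Cre-expressing mice, so both groups carry the albumin-driven Cre, and no treatment separates them. The libraries of a genotype were pooled into 1 call, and of the 2 lists one holds areas of reduced chromatin accessibility (RCAs), which are control regions with no counterpart in the Alb-D2KO call, and the other holds regions open in Alb-D2KO only. No library, replicate error or depth can be read from pooled lists, so no difference between genotypes was tested, and an RCA means that no overlapping region passed the threshold in the pooled Alb-D2KO call. The lists hold no region shared by the genotypes, hence hepatocyte markers could not be checked in them.

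Growth hormone binds its receptor on the hepatocyte, the receptor-bound kinase JAK2 is activated, and STAT5A and STAT5B are phosphorylated and move to the nucleus. There they bind short palindromic sites and raise transcription of Igf1, of Igfals, whose product keeps IGF-1 in the circulation, and of the inhibitors Socs2 and Cish, which close the loop by acting on the receptor and its kinase. SOCS1 and SOCS3 belong to the same protein family and are best known for restraining cytokine signals such as those of interferons and interleukin 6.

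The RCAs at these genes held 10 exact matches to the STAT site TTCNNNGAA, in which N is any base. The matches lay in 7 RCAs of 4 genes, Socs2, Igf1, Socs3 and Cish. Whole regions were searched here, and wide regions have more room for a match. The share of all RCAs with a match was computed only for windows of fixed width and is given below. Sequences below were read from the mm10 genome on the strand of the gene, 5′ to 3′, and the capitals mark the STAT site. The Socs2 pair is shown with its counterpart at the start of Cish, because both carry 2 sites at the same distance. The Socs2 stretch, chr10:95416878-95416949 on the minus strand, lies inside the strongest RCA of the group, with the pair centred 267 bp into the gene and outside annotated exons. The Cish stretch, chr9:107296654-107296683 on the plus strand, is centred 642 bp into the annotated gene, in the 5′ UTR of a long transcript and inside the RefSeq promoter of Cish. It lies between the RCAs of that gene and not in one.
Socs2 pair: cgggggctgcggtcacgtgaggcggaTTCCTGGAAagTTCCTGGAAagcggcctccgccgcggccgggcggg
Cish pair: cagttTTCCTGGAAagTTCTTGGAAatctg

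Over the 20 bases from the first to the last base of the pair, 19 were identical, and the 1 difference was C15T, counted from the 5′ end of the first site with the Socs2 base first. In both genes the starts of the sites were 11 bases apart. Among windows that reach 150 bp to each side of the summit, over all 8019 RCAs, a pair with this spacing was found in 1 window, that of Socs2, and among 32851 RefSeq promoters in 1, that of Cish. The promoters searched did not include Socs2. This spacing was looked for after the Socs2 sequence had been seen, so these counts are a description.

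The remaining matches were single or more widely spaced sites, and they are shown to give the context of each. Socs2 carried them 760 and 9324 bp before its start, Igf1 deep in its body, Socs3 beyond its 3′ end and Cish in an exon of a non-coding transcript of the gene.
Socs2 at chr10:95417910-95417970, minus strand: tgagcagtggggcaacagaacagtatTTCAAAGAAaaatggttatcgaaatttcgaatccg
Socs2 at chr10:95426474-95426534, minus strand: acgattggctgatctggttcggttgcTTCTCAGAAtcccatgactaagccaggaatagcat
Igf1 at chr10:87885639-87885699, plus strand: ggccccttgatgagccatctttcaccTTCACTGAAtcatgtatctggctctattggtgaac
Igf1 at chr10:87885886-87885946, plus strand: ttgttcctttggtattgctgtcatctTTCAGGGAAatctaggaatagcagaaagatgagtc
Igf1 at chr10:87906918-87906978, plus strand: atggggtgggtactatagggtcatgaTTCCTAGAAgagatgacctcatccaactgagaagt
Igf1 at chr10:87907053-87907113, plus strand: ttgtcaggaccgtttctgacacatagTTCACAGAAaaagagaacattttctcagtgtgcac
Socs3 at chr11:117965316-117965376, minus strand: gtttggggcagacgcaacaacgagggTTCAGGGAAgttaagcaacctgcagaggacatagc
Cish at chr9:107298215-107298275, plus strand: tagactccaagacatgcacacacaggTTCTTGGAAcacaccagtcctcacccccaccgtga

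RCAs were found at 9 of the 10 genes, all but Socs1, whereas 25.3% of protein-coding genes had an RCA in the body or within 10 kb. At least 2 RCAs were found at 4 of the 10 genes (Stat5b, Socs2, Igf1 and Cish), beside 9.15% of protein-coding genes. The number was 2 of the 10 for gene bodies alone (Stat5b and Igf1) or with a summit q of at most 0.001 (Stat5b and Socs2). The share of protein-coding genes with at least 2 was not computed at those settings. A promoter-class RCA, which is one within 200 bp of any annotated start, was found at 5 genes (Ghr, Stat5a, Stat5b, Igfals and Socs2), beside 9.58% of protein-coding genes, although that of Igfals is at the start of another gene. Regions open only in Alb-D2KO liver were found at none of the 10 genes within 10 kb, beside 1.02% of protein-coding genes. The list of such regions is short, with 241 on these chromosomes, so none at 10 genes is near that share. Within 50 kb there was none either, but the share of all genes was not computed at that distance. The background holds genes that are silent in liver and have no open region to lose, so the shares were not compared by a test. The nuclei came from whole liver, so fewer nuclei of a cell type and less open chromatin per nucleus cannot be told apart.

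The 9 genes shared 15 distinct RCAs, because the region at the start of Stat5a is also within 10 kb of Stat5b. By class, 5 were promoter, 1 was exonic, 8 were intronic and 1 was intergenic, and 10 of the 15 overlapped a body of the 10 genes. Their signal, the area under the −log10 p curve over the region, so that width and height both enter, ranged from 209.6 to 1024 with a median of 312.0, beside a median of 278.0 over all RCAs. It was above that list median in 12 of the 15. Their width had a median of 448 bp beside 327 bp over all RCAs. The positions fell into 3 patterns, with RCAs at the gene start in Socs2 and Stat5a, near an internal start in Ghr and Stat5b, and away from the start of the gene in the others.

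**Figure D1:**
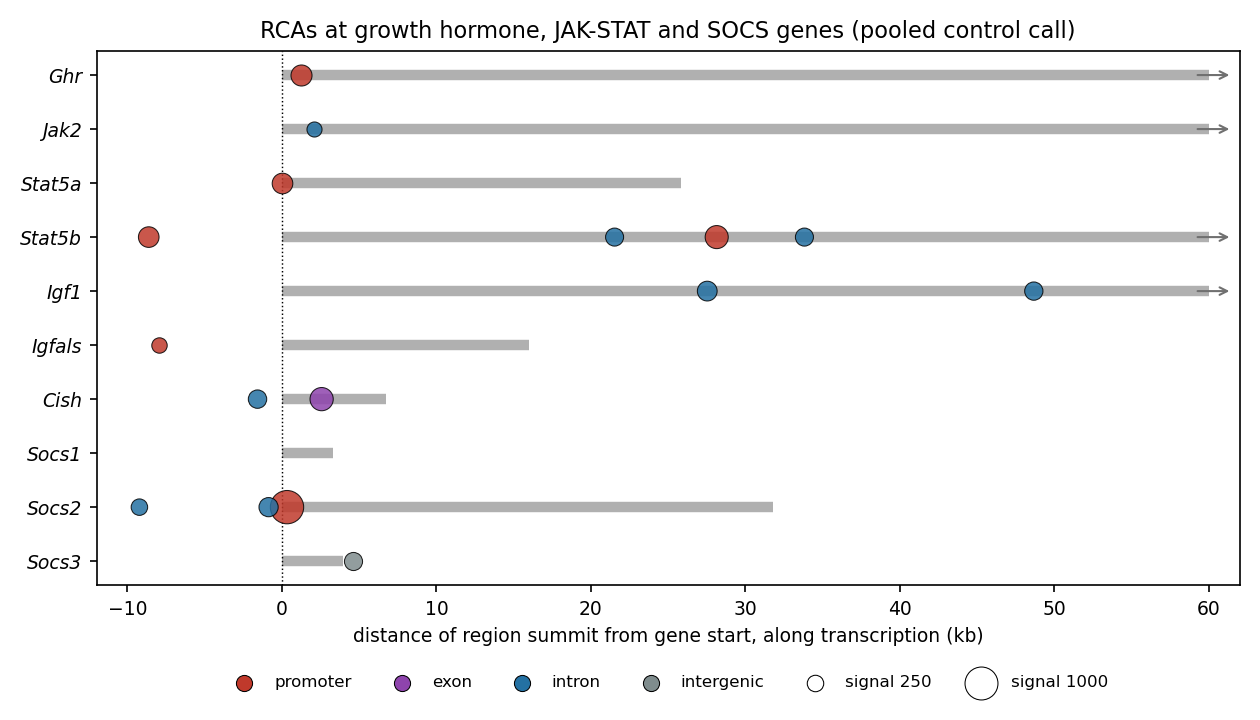
RCAs at the growth hormone, JAK-STAT and SOCS genes. The horizontal axis is the distance in kb of the summit of each region from the start of the gene, along the direction of transcription, gray bars are gene bodies (an arrow marks a body that runs past 60 kb), colour is the class and the area of a circle is proportional to the signal. The largest circle is at the start of Socs2, Stat5a has one at its start, and Socs1 has none.

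Ghr encodes the growth hormone receptor and is the longest of the genes, with 265.7 kb at chr15:3317760-3583492 on the minus strand. It had 1 RCA, chr15:3581885-3582381, of 497 bp, with a signal of 408.6 and a summit −log10 q of 3.28. The region lay 1111 bp from the start of the gene and 43 bp from the start of a protein-coding transcript that begins 1650 bp into it, in annotated exon and UTR sequence. The RefSeq promoter of this internal start overlapped the RCA, had a GC content of 52.3% and held no GC box (GGGCGG), whereas that of the outer start was not in an RCA, had a GC content of 67.0% and held 2. Of 518 protein-coding genes of similar length (within 25% of its own), 35.9% had an RCA, so a count of 1 is common for a gene of this size.

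Jak2 encodes the kinase bound to the receptor. Its single RCA, chr19:29253867-29254065, was narrow, with a width of 199 bp, and its signal of 209.6 was the lowest of the group, with 8.01% of all RCAs below it. It was intronic, with the summit 2088 bp into the gene. The RefSeq promoter of Jak2, with a GC content of 81.0% and 3 GC boxes, was not in an RCA. Of 2058 genes of similar length, 30.9% had an RCA.

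Stat5a and Stat5b encode the closely related transcription factors that carry the signal to the nucleus, and they lie side by side on chromosome 11 and are transcribed away from each other. Stat5a had 1 RCA, chr11:100859261-100859708, of 448 bp and with a signal of 391.8, whose summit was 7 bp before the annotated start. Among 822 genes with an RCA within 200 bp of their own start, the signal of Stat5a ranked 224. The same region lay 8537 bp before the start of Stat5b. Of 3030 genes similar in length to Stat5a, 26.9% had an RCA.

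Stat5b had 4 RCAs, more than any other gene of the group, and 2.37% of 1895 genes of similar length had as many. Besides the region at the Stat5a start, 3 lay within its body. The first, chr11:100822446-100822743, of 298 bp, had a signal of 490.6 and covered an internal start of a protein-coding transcript, 28196 bp into the gene. Its signal per base pair, 1.65, exceeded that of 98.6% of all RCAs, so this was a narrow and high region. The others were intronic and flanked it, with a signal of 300.3 at chr11:100816685-100817221 (537 bp) and of 299.6 at chr11:100828810-100829287 (478 bp). At 0.559 and 0.627 per base pair, these flanking regions were wide and low.

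The promoter sequences of the STAT5 genes that lay in RCAs are shown up to the base before the annotated start, on the strand of the gene, with a nuclear receptor hexamer (AGGTCA on either strand) in capitals where there is one. The Stat5b stretch is the internal promoter and is chr11:100822529-100822743 on the minus strand. The Stat5a stretch is chr11:100859261-100859350 on the plus strand. Neither held a STAT site.
Stat5b internal promoter: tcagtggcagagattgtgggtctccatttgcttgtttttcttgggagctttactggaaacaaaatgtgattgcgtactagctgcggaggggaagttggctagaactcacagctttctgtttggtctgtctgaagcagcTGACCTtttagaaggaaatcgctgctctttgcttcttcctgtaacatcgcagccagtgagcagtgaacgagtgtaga
Stat5a promoter: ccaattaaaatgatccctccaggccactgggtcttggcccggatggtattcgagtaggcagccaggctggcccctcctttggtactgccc

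The internal promoter of Stat5b in RefSeq had a GC content of 47.3% and no GC box, and its outer promoter, which was not in an RCA, had a GC content of 82.7% and 3 GC boxes. At Stat5a the RefSeq promoter in the RCA had a GC content of 57.7% and no GC box, and the one further in, not in an RCA, had 67.7% and 2. The promoter table held 14 windows for 9 of the 10 genes, all but Socs2. The 3 that overlapped an RCA were those of Ghr, Stat5a and Stat5b just given. The share of all RefSeq promoters that overlap an RCA was not computed, so this count has no background.

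Igf1 encodes the growth factor that the liver releases under growth hormone, and it spans 78.8 kb at chr10:87858265-87937042 on the plus strand. It had 2 RCAs, both intronic and of similar width. The first, chr10:87885436-87885968, of 533 bp, had a signal of 360.0 with its summit 27532 bp into the gene, and the second, chr10:87906657-87907201, of 545 bp, had a signal of 308.1 with its summit 48670 bp in. Both were wide and low, at 0.675 and 0.565 per base pair beside a median of 0.909 over all RCAs, and each held 2 STAT sites and 2 nuclear receptor hexamers. Of 1762 genes of similar length, 13.8% had as many RCAs.

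Igfals encodes the acid-labile subunit that carries IGF-1 in blood. Its only RCA, chr17:24857904-24858193, of 290 bp and with a signal of 219.3, lay 7804 bp before the gene and 8 bp from an annotated start of Hagh, the gene of a glyoxalase enzyme, so the region may belong to Hagh. Within 5 kb Igfals had none. Of 2981 genes of similar length, 27.0% had an RCA.

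Socs2 encodes the inhibitor of growth hormone signalling whose loss is known to give overgrown mice. Its strongest RCA, chr10:95416528-95417606, covered the start of the gene on the minus strand and had a signal of 1024, which ranked 11 of all 8019 RCAs and 4 among those of the promoter class. Its width, 1079 bp, exceeded that of 99.5% of all RCAs, and its signal per base pair, 0.949, that of 54.9%, so it was wide more than high. It had a GC content of 68.3% and held 7 GC boxes besides the paired STAT sites. The region also covered the start of 5730420D15Rik, a transcript annotated on the other side, and it cannot be assigned to one of them.

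The other 2 RCAs of Socs2 lay before its start, within introns of 5730420D15Rik. One, chr10:95417917-95418165, of 249 bp, had a signal of 340.0 with its summit 863 bp before the start, and at 1.37 per base pair it was higher than 91.5% of all RCAs. The other, chr10:95426232-95426612, of 381 bp, had a signal of 250.6 with its summit 9224 bp before the start. Each held 1 STAT site, the sequences of which are given above. Of 2886 genes similar in length to Socs2, 3.78% had as many RCAs, and of the 810 with any, 0.247% had one as strong.

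The genes most like Socs2, by the signal of the strongest RCA within 200 bp of the own start of a gene, were Rdm1 with 1243 and Cped1 with 1043 just above, and Soat2 with 924.6 and Angptl4 with 899.0 just below. Socs2 ranked 3 among 822 genes on this measure.

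Cish encodes the inhibitor closest to SOCS2 in sequence and had 2 RCAs on both sides of its start, but none over it. The region before the gene, chr9:107294348-107294524, of 177 bp, had its summit 1579 bp before the start, in an intron of Gm17040, with a signal of 312.0. Only 4.93% of all RCAs were narrower, while its signal per base pair, 1.76, exceeded that of 99.4% of them, so it was the narrowest and, per base, the highest of the 15. It contained no STAT site, and is shown whole, on the plus strand.
Cish upstream RCA: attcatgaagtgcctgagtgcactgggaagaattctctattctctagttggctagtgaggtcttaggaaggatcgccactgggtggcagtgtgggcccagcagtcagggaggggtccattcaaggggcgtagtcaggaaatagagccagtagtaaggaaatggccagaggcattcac

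The region within Cish, chr9:107298105-107298785, of 681 bp, had the higher signal, 497.2, with its summit 2571 bp into the gene, and was wide and low at 0.730 per base pair. Cish had 7.47 RCAs per 100 kb of its body and flanks, the highest density of the group, followed by 5.79 at Socs2 and 4.44 at Stat5b, with 0.350 at Ghr as the lowest among the genes with an RCA. Density depends on gene length as well as on the count, and Socs3 reached 4.17 with 1 RCA. It was not computed for genes outside the group. Of 2656 genes similar in length to Cish, 5.61% had as many RCAs.

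Socs3 had 1 RCA, chr11:117965242-117965511, of 270 bp and with a signal of 302.4, the only intergenic one of the group. It lay 568 bp past the 3′ end of the gene, with the summit 4611 bp from the start. The promoter of Socs3 in RefSeq, with a GC content of 73.3% and 2 GC boxes, was not in an RCA. Of 1745 genes of similar length, 19.3% had an RCA. Socs1 had no RCA, and the nearest was 88182 bp away from its body. Of 1364 genes of similar length to Socs1, 20.6% had an RCA, so most genes of that size had none as well.

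Set side by side, the 4 inhibitor genes differed in where accessibility was reduced. Socs2 had it over the start and before it, Cish on both sides of an unlisted start, Socs3 only past its 3′ end and Socs1 nowhere within 50 kb. The strongest signals were 1024 at Socs2, 497.2 at Cish and 302.4 at Socs3. With pooled calls these signals carry no replicate error, so their order is that of 1 call.

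**Figure D2:**
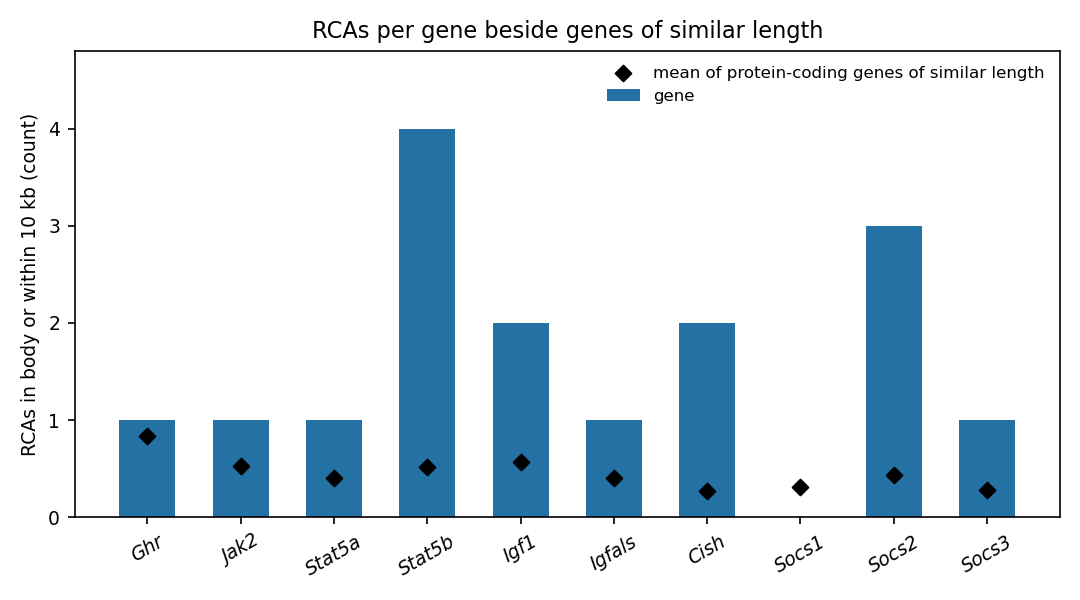
RCAs per gene. The vertical axis is the number of RCAs in the gene body or within 10 kb, bars are the 10 genes and diamonds are the mean over protein-coding genes whose length is within 25% of that of the gene. Stat5b (4) and Socs2 (3) stand highest, Ghr (1) is near the mean of its length (0.842), and Socs1 has no bar.

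The median gene of similar length had 0 RCAs for each of the 10 genes. To be above that median is thus the same as to have any RCA, as 9 of the 10 did, and adds no further result. For the genes with 1 RCA (Ghr, Jak2, Stat5a, Igfals and Socs3), from 19.3% (Socs3) to 35.9% (Ghr) of genes of similar length had as many. Means of the similar genes rose from 0.270 for the length of Cish to 0.842 for that of Ghr.

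**Figure D3:**
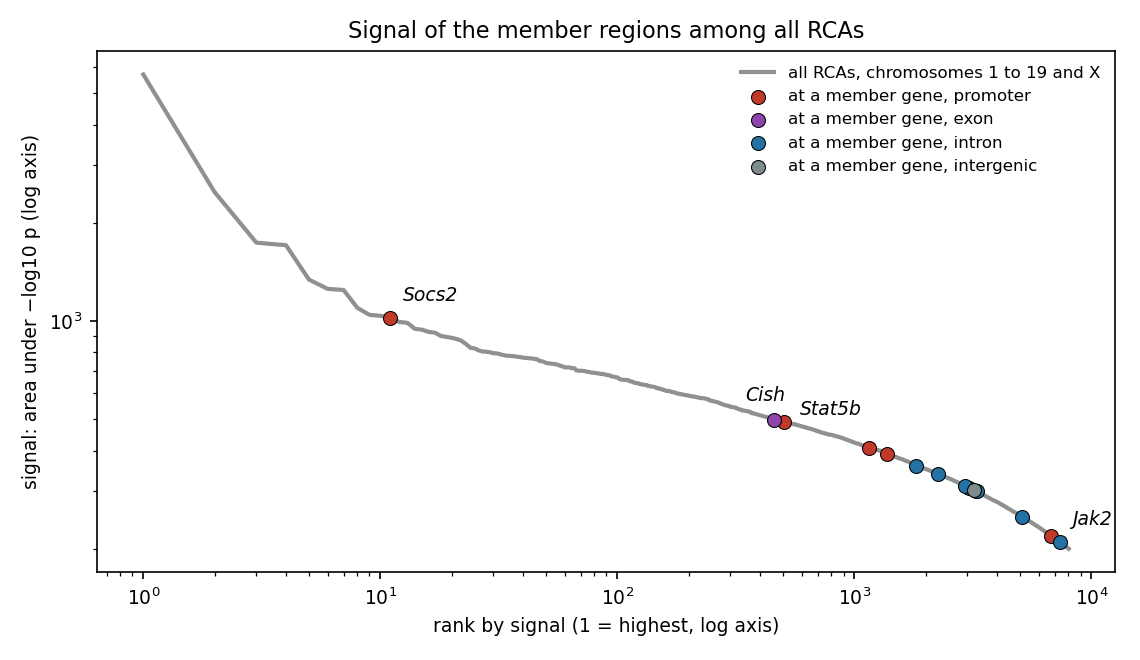
Signal of the RCAs at these genes among all RCAs. The horizontal axis is the rank by signal and the vertical axis the signal (area under −log10 p), both logarithmic, the gray line is all 8019 RCAs and points are the 15 RCAs at these genes, coloured by class. Socs2 stands at rank 11, the strongest regions of Cish and Stat5b follow at ranks 460 and 503, and Jak2 is near the end at rank 7377.

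The number that the peak caller gave each region runs in genome order in both lists, and the highest in the control list was 22367, of which 8031 were listed. A number that is not listed was read as a control region that also met an Alb-D2KO region, hence as accessibility kept in both genotypes. This gives a count of open regions around each gene, between the nearest RCAs outside its 10 kb flanks. At Socs2 all 3 numbered control regions in a span of 114.7 kb were RCAs, with none kept. Among 826 protein-coding genes with at least 3 RCAs, 33 had none kept, and the median share lost was 42.9%.

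In the spans around the other genes part of the open regions was kept, and around Socs1 all of them. At Stat5b 4 of 9 were RCAs, at Jak2 1 of 2, at Ghr and Stat5a 1 of 3 each, at Igf1 2 of 7, at Igfals 1 of 5, at Cish 2 of 10, at Socs3 1 of 6 and at Socs1 0 of 3. The spans differ, from 47.3 kb at Igfals to 795.5 kb at Igf1, and an unlisted number has no position of its own within a gap. At Igf1 all 5 unlisted numbers fell in 1 gap of 600.4 kb that begins after its second RCA. Up to that RCA its span held no unlisted number, as at Socs2. At Cish 6 of the 8 unlisted numbers fell in a gap of 508.8 kb before its upstream RCA. Over these unequal spans the 10 genes ran from 0% of the open regions lost at Socs1 to 100% at Socs2.

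**Figure D4:**
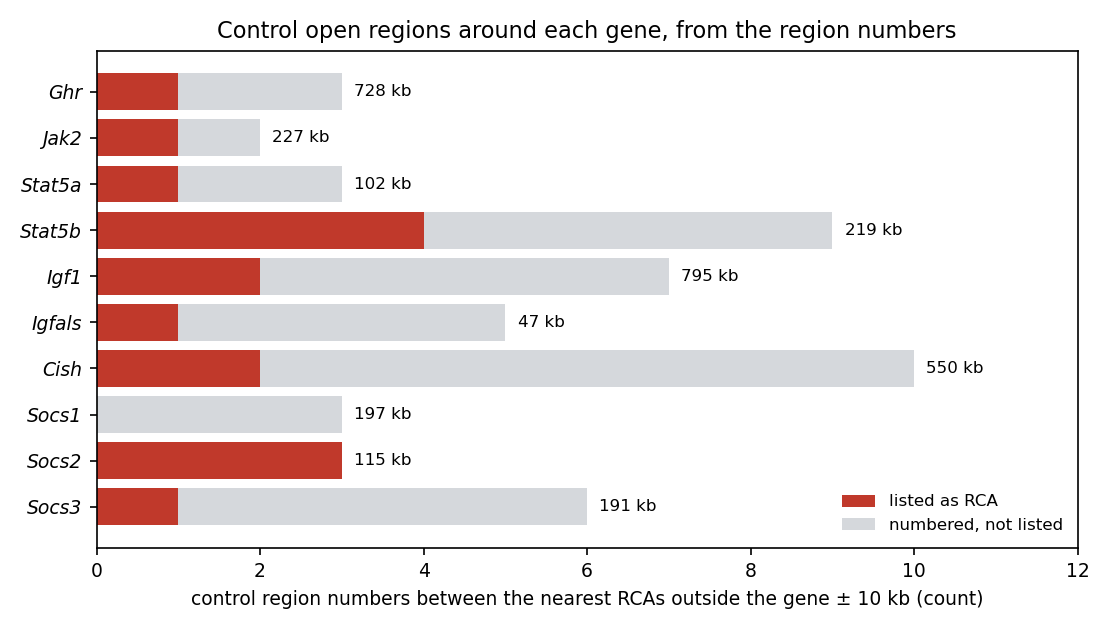
Control regions around each gene. The horizontal axis counts the region numbers of the pooled control call between the nearest RCAs outside the gene and its 10 kb flanks, red is numbers listed as RCA, gray is numbers not listed, and the length of the span is printed at the end of each bar. Socs2 is the only one of the 10 with a bar of several regions that is wholly red (3 of 3), and Socs1 is wholly gray (0 of 3).

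The numbers also bear on the gene starts. The start lay in an RCA at 2 of the 10 genes, Socs2 and Stat5a. Among all 21755 protein-coding genes, 822 had an RCA within 200 bp of their own start. At 7 of the 10 genes the stretch between RCAs that holds the start contained at least 1 unlisted number. Most of these stretches were long, up to 397.0 kb at Ghr, 196.7 kb at Socs1, 138.6 kb at Socs3 and 125.3 kb at Jak2. An unlisted number there need not lie near the start. For Cish the stretch was short, 3.58 kb between its RCAs, with 1 unlisted number in it. By this reading a region open in both genotypes lay in the interval that also holds the Cish start and paired STAT sites. At Igf1 no number was left in the 173.3 kb around its start, so by this reading the control call had no region there.

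Consecutive numbers without a gap mark stretches in which every control region was an RCA. Socs2 was in such a run of 7 regions over 154.1 kb, and 5.52% of RCAs were in runs of at least that length. Both RCAs of Igf1 ended a run of 9 over 1123.6 kb, and 2.89% of RCAs were in runs of at least 9. The RCAs within the body of Stat5b were a run of 3, and 38.5% of RCAs were in runs of at least 3.

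Motifs were counted in the windows of 150 bp to each side of a summit, on both strands. The STAT site was in 7 of the 15 windows of these genes, beside 10.4% of the windows of all RCAs and 8.30% of RefSeq promoters of similar length. These were windows of Socs2 (3), Igf1 (2), Socs3 and the upstream region of Cish, where the match fell outside the called region. The nuclear receptor hexamer was in 5 of 15, beside 30.1% of all RCAs and 16.3% of promoters, and the GC box in 2 of 15, beside 17.7% and 35.7%. None of the 6 windows of Ghr, Jak2, Stat5a and Stat5b had a STAT site, nor did those of Igfals and of the region within Cish. No match of one motif overlapped a match of another in these regions. A match is a description of sequence and not of binding.

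The other genes of the pathway, 42 in 7 lists, were counted in the same way. RCAs were found at 20 of them (47.6%), at least 2 at 14 and a promoter-class RCA at 7, beside 25.3%, 9.15% and 9.58% of protein-coding genes. None had a region open only in Alb-D2KO liver, beside 1.02% of protein-coding genes. The 20 genes shared 42 distinct RCAs. Of the 7 genes with a promoter-class RCA, only Ptpn6 and Bcl6 had one over the start of the gene itself. Among all 21755 protein-coding genes, 822 had one within 200 bp of their own start. The promoter-class RCAs of Jak1, Stat2, Igfbp4, Igfbp6 and Prlr lay at another annotated start. They were from 1724 bp (Igfbp4) to 181167 bp (Prlr) away from the gene start. That of Jak1 lay 78421 bp from its start and also met Gm24468. The lists are short and were chosen with earlier results known, so each is given by its count, to be read beside the same 25.3%.

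Of the other SOCS genes 1 of 4 had RCAs, Socs7 with 3, the strongest of signal 299.3. Of the other kinase genes 2 of 3 had them, Jak1 with 2 and Jak3 with 1, which lay in an intron of B3gnt3, 23461 bp from the start of Jak3. Of the other STAT genes 3 of 5 had them, Stat3 with 2, and Stat2 and Stat6 with 1 each. The region at Stat2, with a signal of 661.5, lay in Apof, an apolipoprotein gene next to it, and that at Stat6 in Nab2. Stat3 adjoins Stat5a on chromosome 11, and 1 of the 5 RCAs within 50 kb of Stat5a was at Stat3, besides that at the Stat5a start and the 3 in the body of Stat5b.

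Among the IGF receptor, ligand and binding protein genes 4 of 10 had RCAs. Igfbp4, the gene of a binding protein that restrains IGF action, had 4 of them, and 0.928% of genes of similar length had as many. The widest, 1045 bp with a signal of 609.2, was of the promoter class, 2417 bp from the gene start. Igfbp2 had 2, one of which was also the only RCA of Igfbp5, and Igfbp6 had 2, the stronger of which (924.6) was at the start of Soat2.

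Of the related receptor genes 4 of 7 had RCAs. Lifr, which encodes the receptor of leukaemia inhibitory factor, had 5, all intronic with signals from 248.8 to 341.7, and Prlr, Il6ra and Il6st had 2 each, of which one of Prlr lay in Agxt2. Of the phosphatase and adaptor genes 4 of 10 had them, Ptpn6 and Gab1 with 2, and Ptpn1 and Irs1 with 1 each, that of Ptpn1 in an exon of Ripor3. Ptpn6, which encodes the phosphatase SHP-1, had one of 509.1 over its start.

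Bcl6, which encodes a repressor that competes with STAT5 at liver genes, had 5 RCAs, and 0.228% of genes of similar length had as many. All 5 were within its body or at its start, with signals from 227.4 to 478.4, and the region over the start had a signal of 434.1. Cux2, which encodes a transcription factor expressed in a sex-dependent way in liver, had 2, one of them in 4933437G19Rik, and the third gene of its list had none.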

How the data were processed

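ATAC-seq data of 4 control and 4 Alb-D2KO livers were used as the lists the authors deposited. Per the submitters' processing notes, reads were aligned to mm10 with BWA 0.7.17, checked with FastQC and Picard, and regions were called with Genrich 0.6. Per the study's methods, libraries were grouped for calling and regions overlapping one of the other genotype were subtracted. The deposited signal is the area under −log10 p, the deposited score is that area per base pair scaled and capped (not used for ranks), and the deposited −log10 q is that of the summit in the pooled call. Depth per library is unknown.

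Here, starts were made 1-based, and regions on chromosomes 1 to 19 and X were assigned to genes and classes (promoter, exon, intron, intergenic, the first met) with GENCODE M21 on mm10, which is not the release that the authors' methods name. Distances are edge to edge. Sequences came from RefSeq GRCm38.p6, the same build, where 32619 of 32619 promoter sequences compared were identical. Python 3.11.15, pandas 2.3.3 and numpy 2.4.6 were used, and counting was tested on simulated data. No test was run. The genes and lists were chosen with earlier results of these data known. All 10 genes are named, other pathway genes where they had a region, the 2 genes on either side of Socs2 by promoter signal, and genes whose start or body a region met.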

Additional observations from a re-analysis of the deposited data

How the results depend on the processing

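No paired analysis was possible because the lists hold 1 pooled call per genotype and no column of a single library, and for the same reason no replicate could be left out. Counts were repeated with other distances, thresholds, promoter windows and length limits, and 34 of 45 repeats were within 1.5 times the reported count (for the share of genes, within its 95% Wilson interval). The 45 are not independent. They include repeats of the comparison with the median gene of similar length, which adds nothing to having any RCA. They also include repeats of the count of regions open only in Alb-D2KO, which was 0 throughout. At 50 kb the 10 genes had 23 RCAs in place of 15. The number with at least 2 RCAs, 4, was 2 for gene bodies alone, 2 with a summit q of at most 0.001, 7 within 50 kb and 4 within 5 kb or with a signal of at least 300, a repeat chosen after seeing the data. The share of all protein-coding genes with at least 2 was not computed at these settings. With a promoter window of 3000 bp, 9 of their RCAs were of the promoter class in place of 5. The share of protein-coding genes with an RCA, 25.3%, was 15.8% for gene bodies alone, 21.3% within 5 kb, 44.6% within 50 kb, 19.8% with a summit q of at most 0.001 and 13% with a signal of at least 300, and at that signal 13 of the other pathway genes had an RCA in place of 20. The number of the 10 genes with an RCA ranged from 7 to 9 over the alternatives, and that of regions open only in Alb-D2KO was 0 in each.

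Igfals lost its RCA with a distance of 5 kb or either threshold, Jak2 with the signal threshold and Socs3 with the gene body alone. For gene bodies alone Socs2 and Cish kept 1 RCA each, and with a summit q of at most 0.001 Igf1 and Cish did. Regions near the calling threshold in either genotype can enter or leave such lists, and pooled calls do not show how often. Counting intervals cover genes, not animals.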
